A study of Mus musculus with 45 samples.

Results

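The frontonasal prominence is the bud of the embryonic face that forms the forehead, the bridge of the nose and the medial and lateral nasal processes. Its mesenchyme, the loose tissue beneath the surface ectoderm, was compared between mouse embryos of embryonic day E11.5 and of embryonic day E10.5. The 6 arrays were chosen by their labels, 3 at E11.5 and 3 at E10.5, out of 45 arrays in the series. All 28944 probe sets with a value were considered, and the 14472 with the larger variance over the 45 arrays were tested. Both groups are inbred wild-type C57BL6/J embryos, and no allele or treatment differs between them. Each array holds RNA pooled from several embryos, from prominences in which the ectoderm had been peeled off the mesenchyme after digestion with Dispase II. The replicates are labelled as biological, so the errors below cover the spread between pools and arrays, not between single embryos. Of the remaining groups, 6 are used here. They are frontonasal mesenchyme at E12.5, mandibular mesenchyme at E11.5 and at E10.5, mandibular ectoderm at E11.5 and at E10.5 and frontonasal ectoderm at E11.5, with 3 arrays each and the same strain, genotype and dissection.

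Most of the mesenchyme of this prominence descends from cranial neural crest cells, which leave the neural folds and settle around the forebrain and the nasal pits. Between these ages the nasal processes grow out around the pits under signals from the nasal pits, the surface ectoderm and the forebrain, of which FGF, WNT, BMP, Hedgehog and retinoic acid are the best known. Crest-derived mesenchyme later forms the cartilage of the nasal capsule, the bones of the midface and the connective tissue of the skin.

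Expression was read with Affymetrix Mouse Gene 1.0 ST arrays, whose probes are spread over the exons of a gene. Values are log2 signals, so a difference of 1 is a 2-fold difference, and levels are compared only between samples for the same gene. Differences are E11.5 minus E10.5 with the standard error (SE) of limma's fit to all 45 arrays. Adjusted p is limma's moderated test with Benjamini-Hochberg adjustment over the 14472 tested probe sets, and a gene rose or fell where it is under 0.05. Precision is limited by having 3 arrays per group. The E11.5 arrays detected 24075 to 25016 probe sets above background and the E10.5 arrays 22534 to 23532, with a detection p under 0.05. Correlations between arrays were 0.9899 to 0.9939 within an age and 0.9715 to 0.9817 between the ages.

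The labelled tissue was checked against marker genes. The mean log2 signal of 12 mesenchyme markers, among them Prrx1, Twist1, Pdgfra and Alx1, was 9.95 to 10.0 over the E11.5 arrays and 9.57 to 9.69 over the E10.5 arrays, and all 12 were detected on every array. This mean differed by 0.387 between the ages, without overlap, and 1 of the 12 markers rose. Markers of surface epithelium were present too. Their mean was 7.61 to 7.66 at E11.5 and 7.72 to 7.75 at E10.5, while the mandibular mesenchyme arrays had 5.73 to 5.99 at E11.5 and 5.62 to 6.08 at E10.5. Frontonasal ectoderm at E11.5 had 9.97. The olfactory placode markers, at 7.21 to 7.22 at E11.5 and 7.0 to 7.13 at E10.5, were likewise higher than in mandibular mesenchyme, where they ran from 5.25 to 5.48 over both ages. The frontonasal mesenchyme arrays thus carry epithelial signal at both ages, with a difference of -0.108 for the surface markers. In bulk RNA, fewer cells of a type and less RNA per cell cannot be told apart, and this holds for every gene below.

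Among the gene lists described below, 25 of 53 tested collagen and matrix genes, 20 of 46 BMP and TGF-beta genes and 18 of 40 axon guidance genes rose in frontonasal mesenchyme at E11.5 against E10.5, while 15 of 29 genes of the LIN28 and early embryonic list and 9 of 21 of hypoxia and glycolysis fell. Of the tested probe sets, 2795 or 19.3% passed the threshold. Of these 1728 (11.9% of those tested) were higher and 1067 (7.37%) were lower at E11.5. At least 2-fold differences were also more often higher, with 175 higher and 47 lower. The median difference over all tested probe sets was -0.0333, and the 3 arrays of each age did not overlap for 39.7% of them. These percentages are the background for the gene lists below, which give the members that rose, that fell and, as the remainder, that did not pass. The lists were chosen with earlier results of these data known. Their shares therefore describe these arrays and are not independent evidence about a pathway or cell type. The background percentages include 5201 tested probe sets without a gene symbol, of which 490 passed, while the lists hold only genes with a symbol. The share that passed is therefore higher among the 9271 probe sets with a symbol, and the lists differ less from those. The background also counts every tested probe set of the 376 symbols with several, while the lists use only the probe set with the highest mean. No background matched in both respects is given by direction. List shares slightly above 11.9% or 7.37% are therefore not read as an excess.

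Cpxm2 (probe set 10568536), a secreted carboxypeptidase-like protein, had the largest rise among named genes. Its log2 signals were 8.36, 8.29 and 8.62 at E11.5, against 5.5, 5.52 and 6.2 at E10.5, a difference of 2.68 ± 0.24 or 6.42-fold with adjusted p = 1.13e-10. All E11.5 arrays were above all E10.5 arrays by more than 2 log2 units. Aldh1a2 (probe set 10586865), an enzyme that makes retinoic acid, had signals of 8.18, 8.33 and 8.21 at E11.5, against 5.31, 5.63 and 6.06 at E10.5, and rose by 2.57 ± 0.31 (adjusted p = 1.26e-07). Postn (probe set 10492021), the matrix protein periostin of collagen-rich tissue, had 7.6, 7.36 and 7.63 at E11.5, against 5.15, 4.91 and 4.91 at E10.5, and rose by 2.54 ± 0.26 (adjusted p = 3.03e-09). Penk, the precursor of the enkephalin opioid peptides, had 7.82, 7.84 and 8.08 at E11.5, against 5.56, 5.11 and 5.66 at E10.5 (2.47 ± 0.12, adjusted p = 6.89e-17). The rule by which these genes were named required that the ages do not overlap. Lrrc17, a secreted leucine-rich repeat protein, had 7.35, 7.45 and 7.82 at E11.5, against 5.19, 5.27 and 5.35 at E10.5 (2.27 ± 0.27, adjusted p = 8.85e-08). Slitrk6, a membrane protein with roles in neurite growth and in the inner ear, had 7.82, 7.55 and 8.01 at E11.5, against 5.65, 5.42 and 5.83 at E10.5 (2.16 ± 0.19, adjusted p = 1.13e-10). Alcam, an adhesion molecule of the immunoglobulin family, had 8.06, 8.05 and 8.16 at E11.5, against 5.97, 5.97 and 6.12 at E10.5 (2.07 ± 0.12, adjusted p = 3.62e-15).

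The remaining genes with large rises are known from several settings. Wif1, Dkk2 and Apcdd1, all inhibitors of WNT signalling, rose by 2.10, 1.93 and 1.90. P4ha3, a subunit of the prolyl hydroxylase that modifies collagen, rose by 1.95, and Islr, a secreted protein of mesenchymal cells, by 1.85. The T-box factor Tbx15 rose by 1.88, the membrane protein gene Tmem26 by 1.86 and Mab21l2, which is needed for eye and body wall development, by 1.85. The highest adjusted p of these 8 genes was 0.000405, for Tbx15.

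Among named genes Igdcc3 (probe set 10586331), a membrane protein of the immunoglobulin family, fell most. Its signals were 7.82, 7.77 and 7.87 at E11.5, against 10.48, 10.68 and 10.44 at E10.5, a difference of -2.71 ± 0.16 (adjusted p = 3.62e-15), or 6.56-fold lower at E11.5. Cxcl13 (probe set 10523359), a chemokine known for attracting B cells, had 5.63, 5.55 and 6.34 at E11.5, against 8.54, 8.17 and 8.08 at E10.5, with a difference of -2.42 ± 0.19 (adjusted p = 6.37e-12). Zbtb16, a zinc finger repressor with roles in limb and axial patterning, had 6.86, 6.76 and 6.78 at E11.5, against 8.51, 8.81 and 8.41 at E10.5 (-1.78 ± 0.15, adjusted p = 4.19e-11). Every E11.5 array was below every E10.5 array for all 3, as the rule for naming them required. Plcg2, a phospholipase best known from immune cells, had 6.03, 6.05 and 5.91 at E11.5, against 7.55, 7.67 and 7.4 at E10.5 (-1.54 ± 0.12, adjusted p = 5.77e-12). Dlk1, an imprinted relative of the Notch ligands, had 8.78, 8.76 and 8.78 at E11.5, against 9.94, 10.16 and 10.0 at E10.5 (-1.26 ± 0.15, adjusted p = 8.85e-08). Slc2a3, a glucose transporter, had 7.86, 7.65 and 7.74 at E11.5, against 9.14, 9.17 and 8.79 at E10.5 (-1.28 ± 0.17, adjusted p = 6.7e-07). Grik2, Greb1, Dusp9 and Metrn, which encode a glutamate receptor subunit, an oestrogen-responsive protein, a phosphatase of MAP kinases and a secreted neurotrophic factor, fell by 1.33, 1.30, 1.24 and 1.22 on the log2 scale.

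**Figure D1:**
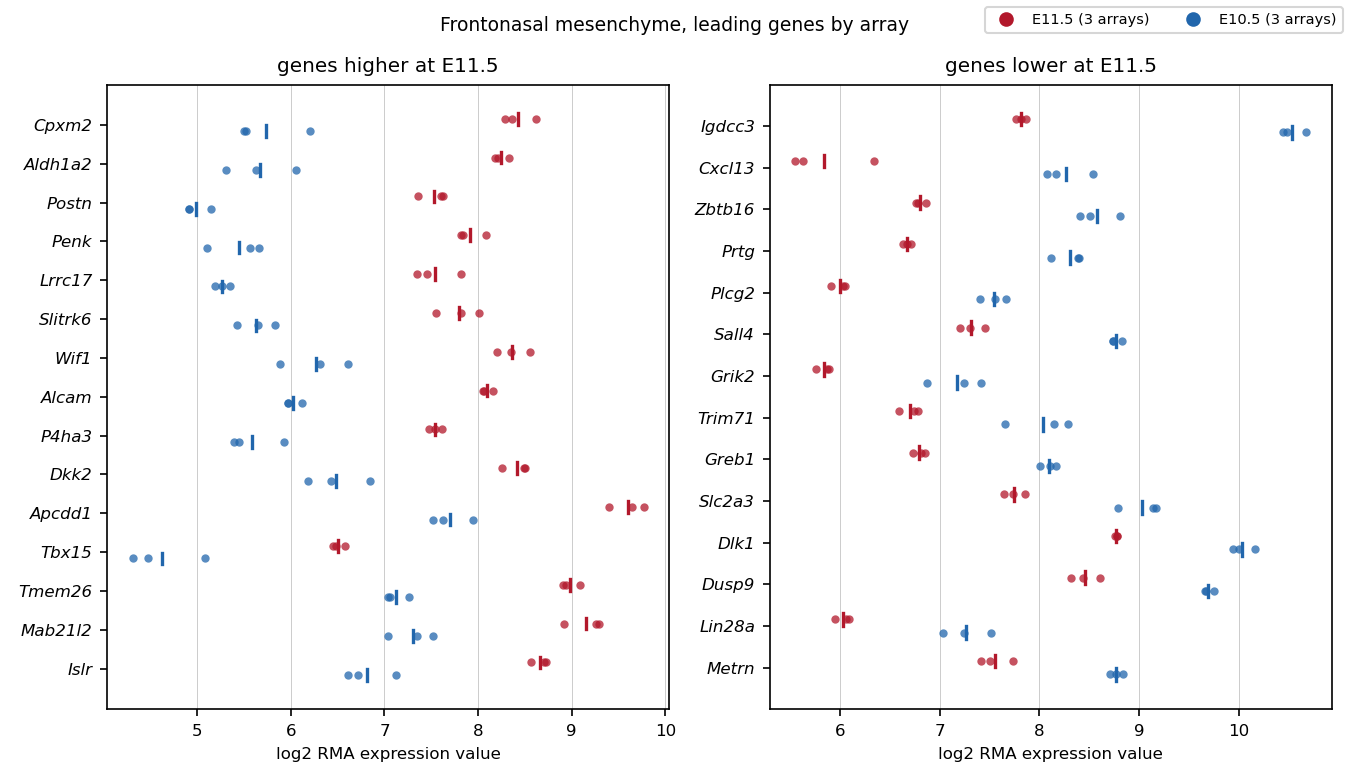
Log2 signal of leading genes that rose (left) and that fell (right) on each array of frontonasal mesenchyme, with E11.5 in red, E10.5 in blue and the mean of 3 arrays as a vertical bar. The ages do not overlap for any gene drawn, because the rule by which these genes were named required it.

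The LIN28 and early embryonic list holds RNA-binding proteins, chromatin factors and transcription factors of early embryos. LIN28A and LIN28B block the maturation of the let-7 microRNAs, and let-7 in turn represses many genes of this kind, among them Lin28a, Trim71 and Igf2bp1. Of 29 tested members 15 fell (51.7%, against 7.37% of all tested probe sets), 1 rose and 13 did not pass, and their median difference was -0.377. Lin28a (probe set 10517159) had signals of 6.06, 5.95 and 6.09 at E11.5, against 7.03, 7.51 and 7.24 at E10.5, a difference of -1.23 ± 0.15 (adjusted p = 9.02e-08). Lin28b (probe set 10368981) had 7.35, 7.3 and 7.55 at E11.5, against 8.63, 8.61 and 8.52 at E10.5, a difference of -1.19 ± 0.12 (adjusted p = 2.29e-09). Neither overlapped between the ages, which the rule for naming required of Lin28a. Sall4, a zinc finger factor of pluripotent cells, had 7.3, 7.2 and 7.45 at E11.5, against 8.74, 8.83 and 8.74 at E10.5 (-1.45 ± 0.15, adjusted p = 5.71e-09). Trim71, an RNA-binding ubiquitin ligase and let-7 target, had 6.78, 6.74 and 6.59 at E11.5, against 8.15, 8.29 and 7.66 at E10.5 (-1.33 ± 0.17, adjusted p = 2.42e-07). Prtg, the receptor-like protein protogenin of early embryonic cells, had 6.63, 6.67 and 6.71 at E11.5, against 8.39, 8.4 and 8.12 at E10.5 (-1.63 ± 0.11, adjusted p = 1.58e-13).

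Several other members fell by smaller amounts. The chromatin factors Arid3b and Arid3a fell by 0.77 and 0.69, and the RNA-binding proteins Igf2bp1 and Igf2bp3 by 0.69 and 0.34. Dnmt3b, the DNA methyltransferase of early embryos, had 7.3, 7.24 and 7.06 at E11.5, against 7.81, 7.85 and 7.93 at E10.5 (-0.66 ± 0.10, adjusted p = 5.21e-06), while Dnmt3a, its relative in later tissue, had 9.6, 9.56 and 9.4 at E11.5, against 9.29, 9.23 and 9.35 at E10.5 and rose by 0.23 ± 0.079 (adjusted p = 0.0352). Myc, the growth-promoting transcription factor, fell too (-0.43 ± 0.13, adjusted p = 0.0194). The difference of its relative Mycn was -0.31 ± 0.12 and did not pass (adjusted p = 0.0608), but passed with the mesenchyme arrays alone (adjusted p = 0.0389), a trended prior (0.0492), renewed quantile normalization (0.00877) and array weights (0.00186). Dnmt3a lost its call without E11.5 replicates 1 or 2 or E10.5 replicates 1 or 2, or with a fit to the compared arrays alone, a fit to the mesenchyme arrays, centring or renewed quantile normalization; Igf2bp3 without E11.5 replicates 1, 2 or 3 or E10.5 replicates 1 or 2, or with centring; and Myc without E11.5 replicates 1 or 2 or E10.5 replicate 3, or with centring (adjusted p up to 0.154).

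Let-7 microRNAs share bases 2 to 8, the seed that pairs with targets, and the 2 sequences below are shown because let-7 is the product that LIN28 holds back. They are RefSeq's mature sequences of the GRCm38.p6 build, 5′ to 3′, with the seed in capitals. Let-7a-5p is read from the gene Mirlet7a-1 (chr13:48538239-48538260, minus strand) and let-7d-5p from Mirlet7d (chr13:48536078-48536099, minus strand).
let-7a-5p: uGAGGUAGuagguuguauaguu
let-7d-5p: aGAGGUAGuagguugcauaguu
Mature microRNA was not measured. The probe set of the Mirlet7d gene, chosen after its values were seen, had 5.42, 5.67 and 5.49 at E11.5, against 4.9, 5.16 and 5.29 at E10.5. The ages did not overlap, and the difference of 0.41 ± 0.20 did not pass (adjusted p = 0.167, and 0.0434 in a fit to the 6 compared arrays alone).

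Genes of the extracellular matrix were more often higher than lower at E11.5. Of 53 tested collagen and matrix genes 25 rose (47.2%, against 11.9% of all tested probe sets), 5 fell and 23 did not pass, with a median difference of 0.377. Tnc, the glycoprotein tenascin C, had 6.94, 7.02 and 6.96 at E11.5, against 4.99, 4.92 and 5.72 at E10.5 (1.76 ± 0.20, adjusted p = 2.23e-08). Ogn, a small proteoglycan that binds collagen fibrils, had 5.83, 5.93 and 6.1 at E11.5, against 4.12, 3.95 and 4.29 at E10.5 (1.83 ± 0.19, adjusted p = 5.36e-09). Dcn, another, had 6.18, 6.07 and 6.56 at E11.5, against 4.96, 4.96 and 4.88 at E10.5 (1.34 ± 0.21, adjusted p = 9.35e-06). Neither overlapped between the ages. Lum, another such proteoglycan, rose by 1.39, Lox, which cross-links collagen, by 1.62, and the secreted proteins Efemp1 and Egfl6 by 1.46 and 1.5. Col6a3, a chain of the beaded collagen VI, had 7.82, 7.8 and 7.75 at E11.5, against 6.45, 6.42 and 6.6 at E10.5 (1.30 ± 0.24, adjusted p = 0.000119). Col1a1, a chain of fibrillar collagen I, had 9.66, 9.53 and 9.45 at E11.5, against 8.54, 8.52 and 8.73 at E10.5 (0.95 ± 0.22, adjusted p = 0.00177). Bgn, the proteoglycan biglycan, rose by 0.99. Col3a1, with 11.0, 10.93 and 10.65 at E11.5, against 10.31, 10.18 and 10.22 at E10.5, did not pass (difference 0.62 ± 0.25, adjusted p = 0.0815, but 0.00553 with the compared arrays alone and 2.68e-05 with the mesenchyme arrays), nor did fibronectin, Fn1 (0.16 ± 0.12, adjusted p = 0.384).

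The 5 members that fell include both chains of the main collagen of basement membranes. Col4a1 had 8.63, 8.63 and 8.38 at E11.5, against 9.08, 9.12 and 8.99 at E10.5 (-0.52 ± 0.11, adjusted p = 0.000462). Col4a2 had 8.29, 8.25 and 8.03 at E11.5, against 8.64, 8.58 and 8.58 at E10.5 (-0.41 ± 0.12, adjusted p = 0.00965), and Col18a1, another basement membrane collagen, fell by 0.43. The other two were Col23a1, a membrane-spanning collagen (-0.37 ± 0.12), and Ccn2, a connective tissue growth factor (-0.59 ± 0.15). Surface epithelium, vessels and nerves have basement membranes, and the mean log2 signal of the epithelial markers differed by -0.108 and that of the endothelial markers by 0.107 over the same arrays. Their part in the collagen IV values was not tested. Col4a2 and Col18a1 lost their calls without E11.5 replicate 3 and Col23a1 without E11.5 replicates 1 or 3 or E10.5 replicates 1 or 3 (adjusted p up to 0.095).

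Of 29 tested proteases of the matrix and their inhibitors 16 rose (55.2%), 0 fell and 13 did not pass. Adamts5, which cleaves proteoglycans, had 6.23, 6.01 and 6.21 at E11.5, against 5.38, 4.97 and 4.97 at E10.5 (1.04 ± 0.16, adjusted p = 8.45e-06). Ctsk, the collagen-degrading protease cathepsin K, had 6.74, 6.69 and 6.93 at E11.5, against 5.71, 5.91 and 5.85 at E10.5 (0.96 ± 0.18, adjusted p = 0.00017). Serpine2, a secreted inhibitor of thrombin and plasminogen activators, rose by 0.86. The matrix metalloproteases Mmp11, Mmp2 and Mmp14 rose by 0.78, 0.62 and 0.41, and Timp2 and Timp3, inhibitors of such proteases, by 0.47 and 0.37. Timp3 lost its call without E11.5 replicate 3 or E10.5 replicates 1 or 2 (adjusted p up to 0.11).

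WNT proteins act through Frizzled receptors and LEF/TCF factors. R-spondins amplify the signal, while DKK, WIF, SFRP and APCDD1 proteins dampen it. Of 46 tested genes 16 rose (34.8%), 2 fell and 28 did not pass, with a median difference of 0.0783. Among ligands and amplifiers, Wnt5a, which guides outgrowth of facial and limb buds, had 10.23, 10.34 and 10.2 at E11.5, against 8.98, 9.04 and 9.21 at E10.5 (1.18 ± 0.12, adjusted p = 7.33e-09). Rspo3 had 6.91, 6.9 and 7.24 at E11.5, against 5.78, 5.39 and 5.87 at E10.5 (1.34 ± 0.18, adjusted p = 1.19e-06), and Rspo2 rose by 0.86. Wnt6, a ligand of surface ectoderm, was one of the 2 that fell, with 5.68, 5.54 and 5.89 at E11.5, against 6.48, 6.3 and 6.23 at E10.5 (-0.63 ± 0.16, adjusted p = 0.00309). It was detected above background on 0 of 3 arrays at E11.5 and 3 of 3 at E10.5. Its level was an estimated 1.55-fold lower at E11.5, a fold that signal below background can understate. Rspo2 lost its call without E11.5 replicate 2 or E10.5 replicates 1 or 2 (adjusted p up to 0.071).

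The inhibitors had the largest rises of the list. Dkk1, which blocks the WNT co-receptor and is needed for head formation, had 8.23, 7.86 and 8.01 at E11.5, against 6.6, 6.48 and 6.67 at E10.5 (1.45 ± 0.18, adjusted p = 2.98e-07). Wif1 had 8.35, 8.2 and 8.55 at E11.5, against 6.31, 5.88 and 6.61 at E10.5 (2.10 ± 0.19, adjusted p = 3.06e-10), and Dkk2 had 8.5, 8.26 and 8.49 at E11.5, against 6.43, 6.18 and 6.85 at E10.5 (1.93 ± 0.23, adjusted p = 8.85e-08). Apcdd1 had 9.64, 9.4 and 9.77 at E11.5, against 7.63, 7.52 and 7.95 at E10.5 (1.90 ± 0.15, adjusted p = 6.37e-12). In these 4 genes each E11.5 array was above each E10.5 array, which the rule for naming required of Wif1, Dkk2 and Apcdd1. Sfrp1, which binds WNT proteins, rose by 0.68. Among genes that WNT signalling induces in many tissues, Axin2 had 8.37, 8.35 and 8.4 at E11.5, against 7.94, 7.84 and 7.87 at E10.5 (0.49 ± 0.12, adjusted p = 0.00213), Lef1 had 9.02, 8.87 and 9.11 at E11.5, against 8.26, 8.27 and 8.55 at E10.5 (0.64 ± 0.11, adjusted p = 4.98e-05) and Nkd1 rose by 0.47. Sp5, a zinc finger factor and WNT target, was detected on 3 of 3 arrays at E11.5 and 0 of 3 at E10.5, with 6.12, 6.06 and 6.35 at E11.5, against 5.55, 5.91 and 5.64 at E10.5. It rose by an estimated 1.39-fold (adjusted p = 0.0134), a fold that signal below background can understate. Lgr5, a receptor of R-spondins, rose by 0.39 ± 0.13. The factor Tcf7 was the other member that fell (-0.54 ± 0.12, adjusted p = 0.000652). Sp5 lost its call without E11.5 replicate 3 or E10.5 replicate 1; and Lgr5 without E11.5 replicates 2 or 3 or E10.5 replicates 2 or 3, or with centring (adjusted p up to 0.163).

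Promoters of Dkk1 and Sp5, which rose (Sp5 with the exceptions given above) and are known as WNT targets, are shown because they hold letters that LEF/TCF factors prefer. The windows are RefSeq's of GRCm38.p6, 250 bases before to 50 after the annotated start, 5′ to 3′ on the strand of the gene. They are chr19:30549447-30549746 for Dkk1 (minus strand) and chr2:70474673-70474972 for Sp5 (plus strand). Capitals mark the letters AACAAAG or ATCAAAG or TACAAAG or TTCAAAG on either strand, so that their reverse complements are marked too. No other motif was searched.
Dkk1: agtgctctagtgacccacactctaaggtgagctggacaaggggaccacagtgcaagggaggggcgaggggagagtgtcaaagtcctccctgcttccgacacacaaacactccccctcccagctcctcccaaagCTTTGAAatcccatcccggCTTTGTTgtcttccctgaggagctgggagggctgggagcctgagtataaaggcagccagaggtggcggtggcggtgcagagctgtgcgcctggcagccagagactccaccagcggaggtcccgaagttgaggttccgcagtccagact
Sp5: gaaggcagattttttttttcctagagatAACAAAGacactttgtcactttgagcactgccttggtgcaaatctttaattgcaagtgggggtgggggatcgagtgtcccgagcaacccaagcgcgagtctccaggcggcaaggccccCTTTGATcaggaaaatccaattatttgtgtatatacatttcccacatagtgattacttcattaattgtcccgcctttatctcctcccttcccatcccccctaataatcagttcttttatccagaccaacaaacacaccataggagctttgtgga
Each window holds 2 matches, which do not overlap. Of 32851 RefSeq promoters of this length 16.9% hold at least 1. Of the 46 tested WNT genes 31 have a promoter in the table and 6 of these hold a match, Dkk1 and Sp5 among them. The 16.9% counts promoters, while the 6 counts genes with a match in any of their promoters. No excess of matches among WNT genes is read from these counts, nor a link to a rise. A match is a description of letters and not a bound site.

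BMP and TGF-beta proteins control growth and the later differentiation of facial mesenchyme. Of 46 tested genes 20 rose (43.5%), 1 fell and 25 did not pass, with a median difference of 0.318. Of the ligands, Bmp4, which marks the outgrowing tips of the facial buds, had 8.55, 8.35 and 8.58 at E11.5, against 7.33, 7.33 and 7.51 at E10.5 (1.10 ± 0.13, adjusted p = 6.75e-08). Bmp2 had 6.17, 6.19 and 6.27 at E11.5, against 5.13, 4.78 and 5.19 at E10.5 (1.18 ± 0.19, adjusted p = 1.26e-05), and Bmp5 rose by 0.79 ± 0.13. Tgfb2 had 8.16, 8.32 and 8.16 at E11.5, against 6.93, 6.56 and 6.99 at E10.5 (1.39 ± 0.11, adjusted p = 6.37e-12), Tgfb3 rose by 0.74, Gdf10 by 1.04 and Inhba, the activin subunit, by 1.08. The ages did not overlap for any of these ligands. Fst, the activin and BMP antagonist follistatin, had 7.8, 7.88 and 7.65 at E11.5, against 6.47, 6.14 and 6.31 at E10.5 (1.47 ± 0.12, adjusted p = 1.17e-11). Of target genes, Id2, an inhibitor of helix-loop-helix factors, had 10.88, 11.15 and 11.01 at E11.5, against 10.29, 10.23 and 10.06 at E10.5 (0.82 ± 0.17, adjusted p = 0.000338), and the homeobox factor Msx1 had 10.43, 10.35 and 10.4 at E11.5, against 9.73, 9.52 and 9.91 at E10.5 (0.67 ± 0.15, adjusted p = 0.00151). Its relative Msx2 had 7.77, 7.97 and 7.84 at E11.5, against 7.57, 7.39 and 7.56 at E10.5, which did not pass (adjusted p = 0.133, and 0.0345 with the compared arrays alone). Smoc1, a secreted antagonist of BMP signalling, was the member that fell (-0.57 ± 0.13).

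FGF8 and FGF17 are ligands of the nasal pit and commissural plate epithelium, and ETV4, ETV5, DUSP4, DUSP6 and the Sprouty proteins are induced by FGF signalling. Of 30 tested FGF genes 5 rose, 5 fell and 20 did not pass, 16.7% each way. Fgf8 had 7.63, 7.34 and 7.19 at E11.5, against 7.92, 7.97 and 7.94 at E10.5 (-0.56 ± 0.15, adjusted p = 0.00642) and Fgf17 had 7.15, 6.97 and 6.94 at E11.5, against 7.46, 7.67 and 7.52 at E10.5 (-0.53 ± 0.15, adjusted p = 0.00962). Etv4 had 7.67, 7.64 and 7.79 at E11.5, against 8.19, 8.26 and 8.33 at E10.5 (-0.56 ± 0.11, adjusted p = 0.000313), Etv5 had 8.66, 8.77 and 8.73 at E11.5, against 9.12, 9.26 and 9.19 at E10.5 (-0.47 ± 0.093, adjusted p = 0.00029) and Dusp4 fell by 0.46. The members that fell were thus 2 ligands and 3 response genes. Dusp6 (-0.18 ± 0.11) and Spry1 (-0.27 ± 0.13) did not pass, with adjusted p = 0.27 and 0.157. The 5 that rose were Flrt2 (1.10) and Flrt3 (0.57), membrane proteins that bind FGF receptors, the ligands Fgf2 (0.55) and Fgf10 (0.47) and the receptor Fgfr2 (0.51). The mean of the surface epithelium markers differed by -0.108 and that of the olfactory placode markers by 0.156 over the same arrays, and their part in the values of the epithelial ligands was not tested. Fgf8 lost its call without E11.5 replicate 3 and Fgf17 without E10.5 replicate 2 (adjusted p up to 0.0581).

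**Figure D2:**
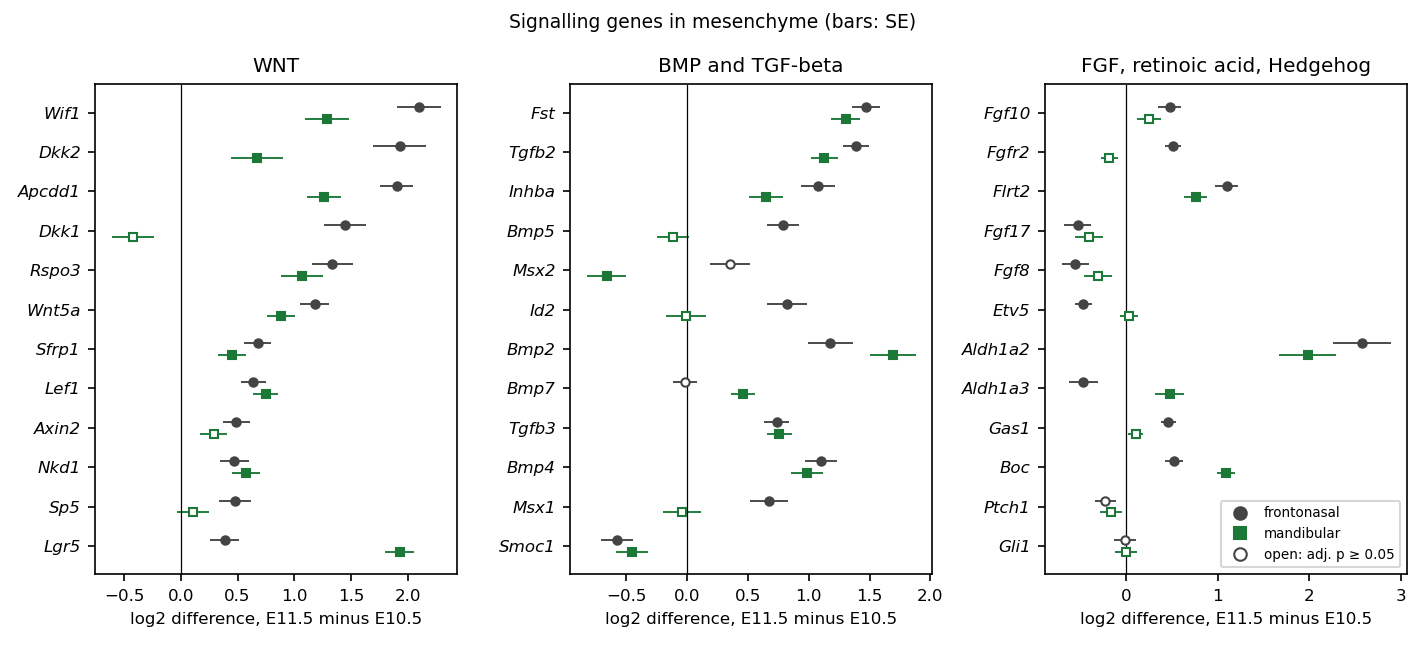
Log2 difference, E11.5 minus E10.5, for genes of 5 signalling pathways in frontonasal mesenchyme (grey circles) and mandibular mesenchyme (green squares), with the standard error of the fit as bars and open symbols where adjusted p was not under 0.05. In frontonasal mesenchyme Wif1 lies at 2.10, Fst at 1.47 and Aldh1a2 at 2.57, and Etv5 lies below 0 at -0.47.

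Retinoic acid is made by ALDH1A enzymes and removed by CYP26 enzymes. Of 16 tested genes of this pathway Aldh1a2 (above) and Cyp26b1 rose, Aldh1a3 and Crabp1 fell and 12 did not pass. Cyp26b1 had 7.73, 7.75 and 7.76 at E11.5, against 6.69, 6.74 and 7.01 at E10.5 (0.93 ± 0.17, adjusted p = 6.94e-05). Aldh1a3, the enzyme of the nasal and eye epithelium, had 9.18, 9.09 and 9.09 at E11.5, against 9.69, 9.69 and 9.38 at E10.5 (-0.47 ± 0.16, adjusted p = 0.0337). Crabp1, a binding protein of retinoic acid in neural crest, had 12.2, 11.97 and 12.27 at E11.5, against 12.77, 12.75 and 12.66 at E10.5 (-0.58 ± 0.15, adjusted p = 0.00394). The synthetic enzymes Aldh1a2 and Aldh1a3 thus moved in opposite directions. Aldh1a3 lost its call without E11.5 replicates 1, 2 or 3 or E10.5 replicates 1 or 2, or with centring (adjusted p up to 0.132).

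Hedgehog proteins act through Patched and GLI proteins, and Notch is a receptor cleaved on contact with the next cell. Of 19 tested Hedgehog genes 4 rose (21.1%) and 0 fell. They were Boc (0.52 ± 0.10) and Gas1 (0.46 ± 0.081), co-receptors of Hedgehog ligands, and the factors Osr2 (0.78 ± 0.18) and Foxf2 (0.58 ± 0.14). The receptor Ptch1, itself a Hedgehog target, had 9.36, 9.16 and 9.37 at E11.5, against 9.57, 9.45 and 9.56 at E10.5 and did not pass (-0.23 ± 0.12, adjusted p = 0.175, and adjusted p = 0.0462 with array weights). Of 20 tested Notch genes Hey2 and Hes1, transcriptional targets of Notch, rose (10.0%) and Dlk1, Notch1 and Notch3 fell (15.0%). Hey2 had 6.26, 6.23 and 6.68 at E11.5, against 4.72, 5.04 and 5.14 at E10.5 (1.42 ± 0.33, adjusted p = 0.00157), Hes1 rose by 0.37 and the receptors Notch1 and Notch3 fell by 0.38 and 0.38. Hes1 lost its call without E11.5 replicate 2 or E10.5 replicate 2; Notch1 without E11.5 replicates 2 or 3 or E10.5 replicates 2 or 3, or with no variance filter, a fit to the mesenchyme arrays or centring; and Notch3 without E11.5 replicates 2 or 3 or E10.5 replicate 3, or with centring (adjusted p up to 0.182).

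Transcription factors of facial mesenchyme were more often higher than lower at E11.5. Of 45 tested cranial mesenchyme factors 16 rose (35.6%), 2 fell and 27 did not pass, with a median difference of 0.397. Tbx15 (probe set 10494672) had 6.58, 6.48 and 6.45 at E11.5, against 4.47, 4.31 and 5.08 at E10.5 (1.88 ± 0.39, adjusted p = 0.000405). Tbx22, a factor mutated in inherited cleft palate in people, had 7.33, 7.13 and 7.38 at E11.5, against 6.38, 5.93 and 6.21 at E10.5 (1.11 ± 0.22, adjusted p = 0.000344). Snai2, a zinc finger factor of migrating neural crest, had 8.78, 8.87 and 8.97 at E11.5, against 7.75, 7.39 and 7.71 at E10.5 (1.26 ± 0.12, adjusted p = 1.59e-09). Ebf1 rose by 0.98 and Osr1, a zinc finger factor, by 0.78. Pbx3, a partner of homeobox proteins, was one of the 2 that fell (-0.32 ± 0.10). Pbx3 lost its call without E11.5 replicate 2 or E10.5 replicate 1, or with a fit to the compared arrays alone (adjusted p up to 0.105).

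Several genes that mark this mesenchyme did not overlap between the ages and yet did not pass. Lack of overlap is common here, since it held for 39.7% of all tested probe sets. Alx1 had 11.1, 10.96 and 10.95 at E11.5, against 10.56, 10.37 and 10.44 at E10.5 (difference 0.55 ± 0.30, adjusted p = 0.226). Pdgfra, the receptor of platelet-derived growth factor, had 11.02, 10.92 and 11.0 at E11.5, against 10.36, 10.16 and 10.25 at E10.5 (difference 0.72 ± 0.31, adjusted p = 0.108). The ages did not overlap for these genes, nor for Twist1 (0.59 ± 0.34) and Prrx1 (0.34 ± 0.40). In a fit to the 6 compared arrays alone all 4 passed, with adjusted p = 0.00505 for Alx1, 0.00117 for Pdgfra, 0.00654 for Twist1 and 0.0296 for Prrx1. In that fit the spread of other groups does not enter the SE. All 4 passed too in the fit to the mesenchyme arrays, where the spread of other mesenchyme groups does enter. There adjusted p was 0.00135 for Alx1, 2.86e-07 for Pdgfra, 0.000105 for Twist1 and 0.00877 for Prrx1. Most of the other alternatives left them not called.

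Of 22 tested regulators of the first pharyngeal arch 5 rose (22.7%) and 0 fell. Besides Mab21l2 they were Lhx8, a homeobox factor of the upper jaw, with 7.66, 7.23 and 7.73 at E11.5, against 6.39, 6.29 and 6.54 at E10.5 (1.13 ± 0.28, adjusted p = 0.00281), Irx5 (0.87), the endothelin receptor Ednra (0.83) and the homeobox factor Gsc (0.56). Of 34 tested cartilage and bone genes 4 rose (11.8%), 3 fell (8.82%) and 27 did not pass, near the 11.9% and 7.37% of all tested probe sets. Runx2, the master factor of bone-forming cells, had 7.29, 7.3 and 7.47 at E11.5, against 6.18, 6.26 and 6.27 at E10.5 (1.12 ± 0.15, adjusted p = 5.65e-07), and its second tested probe set did not pass. Col11a1, a cartilage collagen, rose by 0.34 and Sox9, the master factor of cartilage, by 0.36 ± 0.12. The 3 that fell are matrix genes of cartilage. Col2a1 had 9.27, 9.24 and 8.97 at E11.5, against 10.06, 10.1 and 10.02 at E10.5 (-0.90 ± 0.12, adjusted p = 3.49e-07), Hapln1 had 6.89, 6.72 and 6.95 at E11.5, against 7.87, 7.73 and 7.47 at E10.5 (-0.84 ± 0.16, adjusted p = 0.000181) and Matn3 fell by 0.43. Sp7, a later factor of bone-forming cells, had 5.77, 5.69 and 5.82 at E11.5, against 5.31, 5.36 and 5.34 at E10.5 and did not pass (adjusted p = 0.0828, but 0.00991 with the compared arrays alone and 0.0274 with the mesenchyme arrays). Sox9 lost its call without E11.5 replicates 2 or 3 or E10.5 replicates 1 or 3, or with renewed quantile normalization; Col11a1 with a fit to the compared arrays alone; Ednra without any 1 of the 6 arrays, or with no variance filter, a detection filter, no moderation or renewed quantile normalization; and Gsc without any 1 of the 6 arrays (adjusted p up to 0.14). Matn3 lost its call without E11.5 replicate 3 or E10.5 replicate 3 (adjusted p up to 0.088).

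Axon guidance molecules, which also steer crest and mesenchymal cells, were more often higher than lower at E11.5. Of 40 tested 18 rose (45.0%), 1 fell and 21 did not pass. Robo2, a receptor of SLIT proteins, had 8.6, 8.55 and 8.59 at E11.5, against 7.58, 7.49 and 7.53 at E10.5 (1.05 ± 0.093, adjusted p = 1.54e-10). Unc5c, a netrin receptor, had 8.42, 8.43 and 8.43 at E11.5, against 7.59, 7.26 and 7.39 at E10.5 (1.01 ± 0.11, adjusted p = 8.89e-09). The ephrin receptors Epha3 and Epha4 rose by 1.06 and 0.83, Nrp2, a semaphorin co-receptor, by 0.86 and Sema3a by 0.62. Plxna2, a semaphorin receptor, was the member that fell (-0.42 ± 0.10). The mean log2 signal of the neuron markers was 7.11 to 7.22 at E11.5 and 6.82 to 6.97 at E10.5, with no overlap, and its part in the axon guidance values was not tested. Of 35 tested adhesion genes 12 rose (34.3%), with 1.74 ± 0.18 for the cadherin Cdh10 and 1.26 ± 0.16 for the protocadherin Pcdh9, and 1 fell, the integrin subunit Itgb1 (-0.47 ± 0.17). Epha3 lost its call without E10.5 replicate 2; and Itgb1 without E11.5 replicates 1, 2 or 3 or E10.5 replicates 2 or 3, or with no variance filter, no moderation or renewed quantile normalization (adjusted p up to 0.179).

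Of 44 tested growth factor genes 16 rose (36.4%), 3 fell and 25 did not pass. Igfbp7, a secreted protein that binds insulin-like growth factors, had 7.07, 6.99 and 7.46 at E11.5, against 5.95, 5.76 and 6.05 at E10.5 (1.25 ± 0.16, adjusted p = 3.83e-07). Cxcl14, a chemokine of mesenchyme and epithelium, had 7.61, 7.11 and 7.7 at E11.5, against 5.8, 6.32 and 6.8 at E10.5 (1.17 ± 0.17, adjusted p = 2.25e-06). The receptor Egfr rose by 0.91, the growth hormone receptor Ghr by 0.91 and the neurotrophin Ntf3 by 0.94. The 3 that fell were Kitl (-0.42), its receptor Kit (-0.34) and Igfbp2 (-0.36), another protein that binds insulin-like growth factors. Kit lost its call without E11.5 replicate 3, or with centring; and Igfbp2 without E11.5 replicate 2 or E10.5 replicate 1 (adjusted p up to 0.0669).

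Glycolysis breaks down glucose and is raised in many cells by low oxygen. Of 21 tested hypoxia and glycolysis genes 9 fell (42.9%, against 7.37% of all tested probe sets), 2 rose and 10 did not pass, with a median difference of -0.177. The glucose transporters were among those that fell. Slc2a1 had 10.18, 10.0 and 10.08 at E11.5, against 10.51, 10.65 and 10.42 at E10.5 (-0.44 ± 0.083, adjusted p = 0.000157), beside Slc2a3 above. The glycolytic enzymes Aldoa, Pfkl, Eno1 and Ldha fell by 0.41, 0.34, 0.31 and 0.30 and the hexokinase Hk2 by 0.37. The 2 that rose were P4ha2, a collagen prolyl hydroxylase, by 0.53 and the hexokinase Hk1 by 0.28. Hk1 lost its call without E11.5 replicates 1, 2 or 3 or E10.5 replicate 1, or with a fit to the compared arrays alone or centring (adjusted p up to 0.226).

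Of 34 tested cell cycle genes 6 fell (17.6%), 3 rose (8.82%, below the 11.9% of all tested probe sets) and 25 did not pass. Ccne1, the cyclin of entry into DNA synthesis, had 9.05, 9.03 and 9.31 at E11.5, against 9.78, 9.68 and 9.78 at E10.5 (-0.62 ± 0.083, adjusted p = 8.56e-07), and the replication licensing factor Cdt1 fell by 0.51. The 3 that rose encode proteins that restrain division, but so few do not characterize the list. Cdkn1c, an imprinted inhibitor of cyclin-dependent kinases, rose by 0.70 ± 0.074 (adjusted p = 6.2e-09). Cdkn1b, another such inhibitor, had 6.59, 7.04 and 7.31 at E11.5, against 6.31, 6.03 and 6.52 at E10.5 (0.69 ± 0.17, adjusted p = 0.00345), and the antiproliferative protein Btg1 rose by 0.53. Cdkn1b lost its call without E11.5 replicate 3 (adjusted p up to 0.0522).

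Markers of other cell types that the dissected tissue could hold were examined next. Of 25 tested macrophage genes 13 rose (52.0%), 1 fell and 11 did not pass. The mean log2 signal of the 9 defining macrophage markers was 6.13 to 6.25 on the E11.5 arrays and 5.57 to 5.7 on the E10.5 arrays, and 8 of the 9 rose. C1qb, a subunit of complement C1q made by macrophages, had 6.49, 6.38 and 6.77 at E11.5, against 5.67, 5.45 and 5.92 at E10.5 (0.87 ± 0.15, adjusted p = 4.77e-05). Mrc1, the mannose receptor, had 6.06, 5.94 and 6.11 at E11.5, against 5.23, 5.14 and 5.31 at E10.5 (0.81 ± 0.15, adjusted p = 8.47e-05), and Csf1r, the receptor for macrophage growth factor, had 6.82, 6.79 and 6.91 at E11.5, against 6.25, 6.19 and 6.32 at E10.5 (0.59 ± 0.14, adjusted p = 0.00234). The ages did not overlap for these 3 genes. Ctss, the protease cathepsin S, rose by 1.08, and Cd68, a lysosomal protein, was the member that fell (-0.90 ± 0.20). Of 27 tested genes of red cells 9 rose (33.3%) and 1 fell, Tfrc (-0.47 ± 0.11), the transferrin receptor. Slc4a1, the anion exchanger of red cells, had 9.16, 8.76 and 9.05 at E11.5, against 8.21, 7.77 and 7.85 at E10.5 (1.05 ± 0.27, adjusted p = 0.00396). The mean of the red cell markers was 9.67 to 9.97 at E11.5 and 9.14 to 9.56 at E10.5. The part of these cells in other differences was not tested.

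Of 28 tested neuronal genes 5 rose (17.9%) and 0 fell, and the mean of the defining neuron markers differed by 0.287. Gap43, a protein of growing axons, had 10.2, 10.27 and 10.46 at E11.5, against 9.13, 9.0 and 9.29 at E10.5 (1.17 ± 0.23, adjusted p = 0.000201). The others were Elavl4 (0.66), Ebf2 (0.62), Dcx (0.50) and Map2 (0.38). Of 22 tested olfactory placode genes Lhx2 (0.70 ± 0.20), a homeobox factor, and Sfrp1 rose, while Fgf8, Eya2 (-0.55 ± 0.12) and Aldh1a3 fell. These are 9.09% and 13.6% of that list. Of 36 tested genes of facial epithelium Krt5, the keratin of basal cells, rose, with 7.01, 6.85 and 6.93 at E11.5, against 5.68, 5.84 and 5.85 at E10.5 (1.14 ± 0.31, adjusted p = 0.00761). Krt19, a keratin of simple epithelium, and the epithelial genes St14 and Spint1 fell by 0.69, 0.52 and 0.42. Of this list 2.78% rose and 8.33% fell, and its median difference was -0.172. Of 11 tested genes of forebrain and eye 0 rose and 3 fell (27.3%), namely Nes (-0.60), Six6 and Tbr1 (-0.38). Six6 was detected on 0 of 3 arrays at E11.5 and 3 of 3 at E10.5. It was an estimated 1.45-fold lower at E11.5, a fold that signal below background can understate. Dcx lost its call without E11.5 replicates 1, 2 or 3 or E10.5 replicates 1 or 2, or with centring or renewed quantile normalization; Elavl4 without E11.5 replicates 1, 2 or 3 or E10.5 replicates 2 or 3, or with no variance filter or no moderation; Map2 without E11.5 replicates 2 or 3 or E10.5 replicate 2; and Lhx2 without E11.5 replicate 3 (adjusted p up to 0.132). Tbr1 lost its call without any 1 of the 6 arrays, or with renewed quantile normalization; Krt19 without E11.5 replicate 2 or E10.5 replicate 1; St14 without E11.5 replicate 3; and Spint1 without E11.5 replicate 3 or E10.5 replicate 1 (adjusted p up to 0.119). Six6 lost its call without E11.5 replicate 3 or E10.5 replicate 2 (adjusted p up to 0.0722).

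Genes were also grouped by the layer in which mandibular arrays, which share no sample with this comparison, show them. Of 496 probe sets at least 2-fold lower in mandibular ectoderm than in mandibular mesenchyme, 193 rose (38.9%) and 17 fell (3.43%), with a median difference of 0.352. Of 700 at least 2-fold higher in mandibular ectoderm, 78 rose (11.1%) and 81 fell (11.6%), with a median of -0.065. Over all tested probe sets the shares were 11.9% and 7.37%. Of the 14472 probe sets 6701 (46.3%) differed between the mandibular layers.

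**Figure D3:**
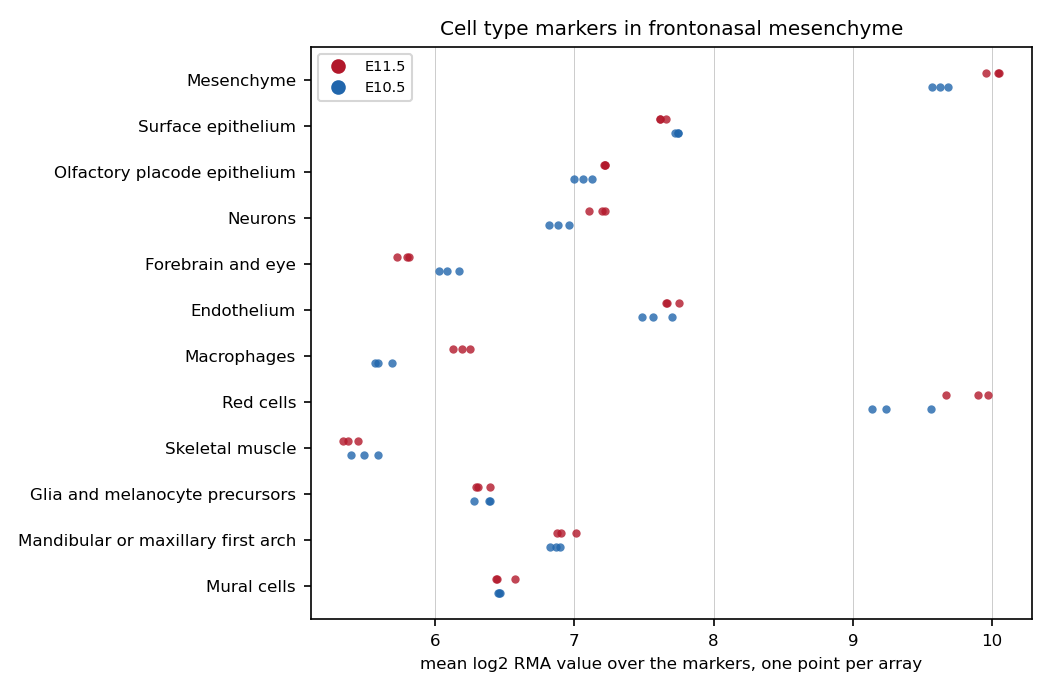
Mean log2 signal of each list of defining cell type markers in frontonasal mesenchyme, with 1 point per array at E11.5 (red) and E10.5 (blue). The macrophage markers lie at 6.13 to 6.25 at E11.5 and at 5.57 to 5.7 at E10.5, while the mural, muscle and endothelial markers overlap between the ages.

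Mandibular mesenchyme of the same ages came from other arrays and shows how far the age difference is common to both regions. In it 2548 probe sets (17.6%) passed, 1353 higher (9.35%) and 1195 lower (8.26%) at E11.5. That balance turned to 976 higher and 1236 lower with centring, 1458 and 1821 with no variance filter and 1555 and 1978 with a detection filter. Of the frontonasal calls 1148, or 41.1%, were called in the same direction in the mandible, which is 45.1% of the mandibular calls, and 26 were called in opposite directions. Of the 1353 that rose in the mandible 51.7% rose in the frontonasal mesenchyme and 0.887% fell. Lin28b and Igdcc3 fell in both. In mandibular mesenchyme Lin28b had 7.28, 7.08 and 7.33 at E11.5, against 8.58, 8.91 and 8.86 at E10.5, a difference of -1.55 ± 0.12 (adjusted p = 3.39e-12). Igdcc3 there had 8.06, 7.77 and 7.67 at E11.5, against 10.56, 10.16 and 9.82 at E10.5, a difference of -2.35 ± 0.16 (adjusted p = 1.26e-13). Of 29 tested members of the LIN28 and early embryonic list 15 fell in frontonasal and 11 in mandibular mesenchyme, and 0 had a difference of the age effect that passed. Only 3.52% of all tested probe sets had such a difference, so the 0 does not show equal age effects in these genes. Of collagen and matrix genes 25 rose in frontonasal and 32 in mandibular mesenchyme.

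The difference of the age effect, frontonasal minus mandibular, was tested as an interaction, and 509 probe sets (3.52%) passed, 260 higher (1.8%) and 249 lower (1.72%). Centring the arrays changes that split to 240 higher and 152 lower. Leaving out an array moved the count to 277 without frontonasal E10.5 replicate 2, 289 without frontonasal E11.5 replicate 3, 297 and 300 without mandibular E10.5 replicates 3 and 2, and 315 and 324 without mandibular E11.5 replicates 1 and 2. Genes were named for an interaction only if their frontonasal arrays did not overlap between the ages. That rule passes over Rgs5, a mural cell marker whose interaction passed. Its differences were 0.097 in frontonasal and -2.32 in mandibular mesenchyme. Cpxm2, with the largest positive value among the other named genes, had 5.1, 5.31 and 5.52 at E11.5, against 5.35, 4.71 and 4.74 at E10.5 in mandibular mesenchyme, where it did not pass (0.38 ± 0.24), and its interaction was 2.31 ± 0.33 (adjusted p = 2.24e-05). Slitrk6 and Ndnf, a secreted neurotrophic factor, rose by 2.16 and 1.37 in frontonasal mesenchyme, with mandibular differences of 0.043 and -0.53 and interactions of 2.12 ± 0.27 and 1.90 ± 0.33. Tbx22, Gap43 and Pla2g7, a secreted phospholipase, rose in frontonasal and fell in mandibular mesenchyme. Their differences were 1.11 and -0.89 for Tbx22, 1.17 and -0.81 for Gap43 and 1.36 and -0.54 for Pla2g7. Dkk1 (interaction 1.87 ± 0.26, adjusted p = 1.21e-05), Unc5c (1.30 ± 0.15) and Igfbp7 (1.32 ± 0.23) had positive interactions too, with mandibular differences of -0.42 ± 0.18, -0.29 ± 0.11 and -0.070 ± 0.16 that did not pass.

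On the negative side lies Actc1, the actin of heart and developing skeletal muscle. It had 6.51, 6.78 and 6.81 at E11.5, against 7.06, 7.14 and 7.01 at E10.5 in frontonasal mesenchyme, which did not pass (adjusted p = 0.526, and 0.0388 with the compared arrays alone), and 10.88, 10.94 and 11.06 at E11.5, against 7.17, 7.44 and 7.51 at E10.5 in mandibular mesenchyme, where it rose by 3.59 ± 0.35. Its interaction was -3.96 ± 0.50 (adjusted p = 2.2e-06). Of 32 tested muscle genes 0 rose and 2 fell in frontonasal mesenchyme, the desmin gene Des (-0.70) and Acta1 (-0.41), the actin of adult skeletal muscle, while 20 rose in mandibular mesenchyme and 13 had an interaction. The mean of the defining muscle markers was 5.34 to 5.45 at E11.5 and 5.4 to 5.59 at E10.5 in frontonasal mesenchyme, and 6.93 to 7.06 at E11.5 and 5.61 to 5.63 at E10.5 in mandibular mesenchyme. Cxcl13 (-2.67 ± 0.26), Meox2 (-1.79 ± 0.24), a homeobox factor of muscle and mesenchyme, Lgr5 (-1.54 ± 0.18) and Scube1 (-1.51 ± 0.23), a secreted protein, are others with large negative interactions. Of the 25 tested macrophage genes 13 rose in frontonasal mesenchyme, against 3 in mandibular mesenchyme, and 2 had an interaction, which 3.52% of all tested probe sets had. Acta1 lost its call without E11.5 replicate 3 or E10.5 replicate 2 (adjusted p up to 0.0681).

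**Figure D4:**
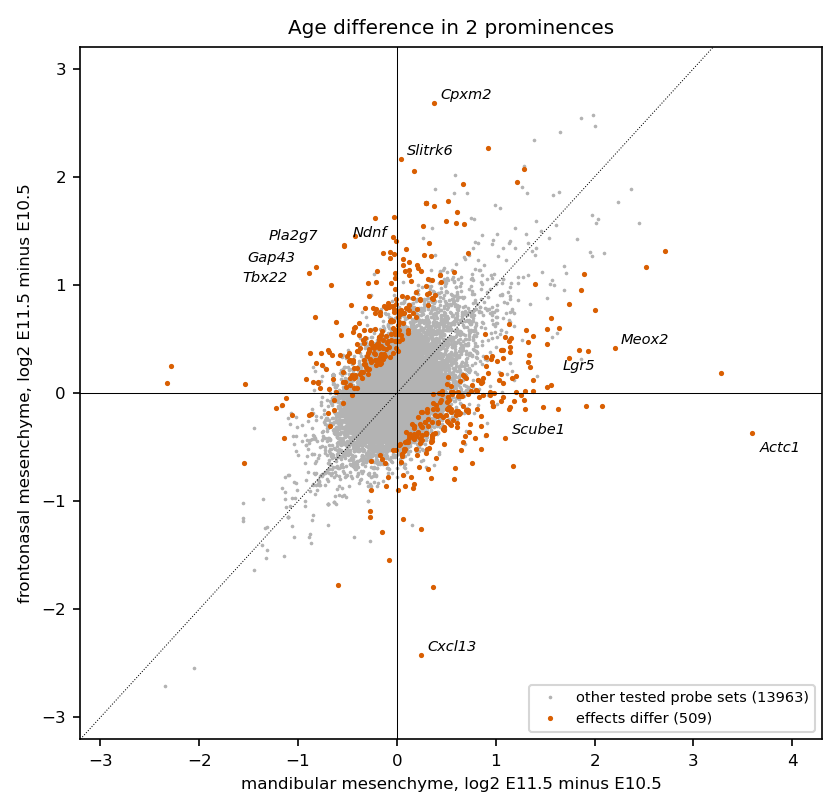
Log2 difference E11.5 minus E10.5 in frontonasal mesenchyme on the vertical axis and in mandibular mesenchyme on the horizontal axis, one point per tested probe set, with those whose age effect differed between the regions marked. Cpxm2 lies at 2.68 on the vertical and 0.38 on the horizontal axis, and Actc1 at -0.37 and 3.59.

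Frontonasal mesenchyme at E12.5 shares the E11.5 arrays with this comparison, so the values stand side by side without a test of their relation. From E11.5 to E12.5, 2253 probe sets (15.6%) passed, 1284 higher (8.87%) and 969 lower (6.7%) at E12.5. Postn was 5.15, 4.91 and 4.91 at E10.5, 7.6, 7.36 and 7.63 at E11.5 and 9.83, 9.6 and 9.9 at E12.5. Cpxm2 was 5.5, 5.52 and 6.2 at E10.5, 8.36, 8.29 and 8.62 at E11.5 and 8.64, 8.67 and 8.7 at E12.5. Lin28b was 8.63, 8.61 and 8.52 at E10.5, 7.35, 7.3 and 7.55 at E11.5 and 6.2, 6.12 and 5.85 at E12.5. The later step was 2.25 ± 0.26 for Postn, 0.25 ± 0.24 for Cpxm2, which did not pass, and -1.34 ± 0.12 for Lin28b. Of cartilage and bone genes 22 rose and 0 fell from E11.5 to E12.5, against 4 and 3 in the earlier step. Of cell cycle genes 4 rose and 20 fell in the later step, against 3 and 6. Of red cell genes 0 rose and 16 fell, against 9 and 1. Of facial epithelium genes 16 rose and 0 fell, against 1 and 3.

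**Figure D5:**
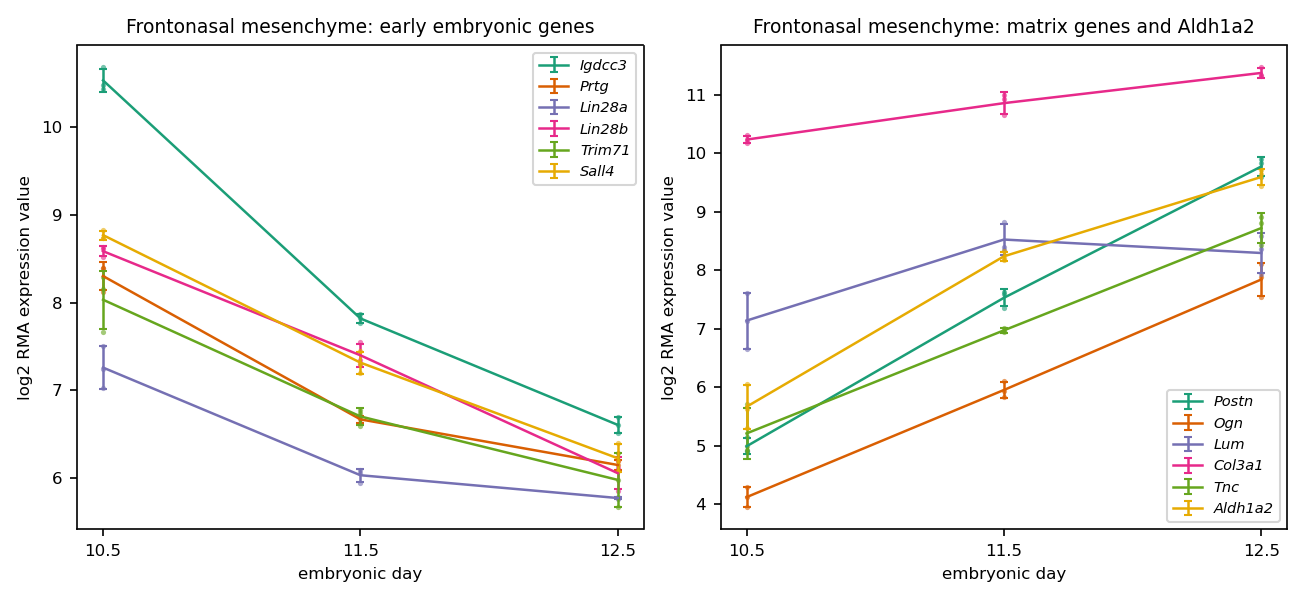
Log2 signal of genes at E10.5, E11.5 and E12.5 in frontonasal mesenchyme, with each array as a point and lines through the means, whose error bars are the SD of 3 arrays. The left panel holds genes of early embryos and the right panel matrix genes and Aldh1a2. Postn rises at both steps, and Lin28b falls at both.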

How the data were processed

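Per the submitters' processing notes the deposited log2 values were made with RMA in Affymetrix Power Tools 1.91 and the build mm9. A deposited table of detection p-values names apt 1.8.0 in its header, and a p-value under 0.05 counted as detected. The authors' deposited table of q-values was used for gene symbols only. Of its names 8452 were unchanged in RefSeq's GRCm38.p6 table, 852 were synonyms, 93 were kept and 229 had none. Of 14472 tested probe sets 9271 carry a symbol, and of 2795 calls 490 do not.

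With limma 3.58.1 in R 4.3.3, each of 15 groups received its own mean in a fit to 45 arrays, with 35.3 total degrees of freedom, to probe sets whose variance exceeded the median of 0.0414. Tests are two-sided. Where a symbol has several probe sets, the one with the highest mean was used. The genes, the 31 lists and the tests were chosen with earlier results of these data known. Genes were named by size. Among those past the threshold whose arrays did not overlap, 15 in each direction were taken by difference and 6 in each direction by interaction. From each list up to 8 past the threshold were taken, without a condition on overlap, plus a few others with their values. A few genes chosen this way are left out here. Fits were tested on simulated data. Alternatives were other filters, fits, priors, scalings, weights for arrays, a replicate block and omission of each array in turn. Python 3.11.15, numpy 2.4.6, pandas 2.3.3, scipy 1.17.1 and matplotlib 3.10.9 were used.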

Additional observations from a re-analysis of the deposited data

Results flagged for a closer look

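The age difference was tested for a difference between frontonasal and mandibular mesenchyme, and 509 probe sets passed (limma, adjusted p under 0.05). The values here are log2 differences of the age effect, frontonasal minus mandibular, for every gene named above that passed this test, except Rgs5.

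The age difference was higher in frontonasal mesenchyme for Cpxm2 (2.31), Slitrk6 (2.12), Tbx22 (2.00), Gap43 (1.98), Ndnf (1.90), Pla2g7 (1.89) and the WNT inhibitor Dkk1 (1.87). Among homeobox factors it was higher for Lhx2 (1.53) and Msx2 (1.01). Among secreted proteins, receptors and adhesion molecules it was higher for Igfbp7 (1.32), Unc5c (1.30), Bmp5 (0.90), Alcam (0.79), Robo2 (0.69), Fgfr2 (0.69), Serpine2 (0.63), Ghr (0.61) and the collagen hydroxylase P4ha2 (0.64).

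It was lower in frontonasal mesenchyme for the muscle actins Actc1 (-3.96) and Acta1 (-0.77), and for the factors Meox2 (-1.79), Zbtb16 (-1.18) and Eya2 (-0.85). The same direction was found for the chemokines Cxcl13 (-2.67) and Cxcl14 (-1.35), for Lgr5 (-1.54), Scube1 (-1.51), Dlk1 (-1.50), Plcg2 (-1.47), Krt19 (-1.28), Slc2a3 (-1.14), Nes (-0.99), Aldh1a3 (-0.94) and Col4a1 (-0.71). These genes and those of the paragraph before passed without each of the 12 arrays in turn.

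The others lost the call without at least 1 of the 12 arrays. They were Lhx8 (1.33), Lrrc17 (1.35), Dkk2 (1.26), Id2 (0.83), P4ha3 (0.74), Bgn (0.70) and Ldha (0.38) with a higher age difference in frontonasal mesenchyme, and Boc (-0.57), Col2a1 (-0.64), Col4a2 (-0.57), Col23a1 (-0.59) and Etv5 (-0.50) with a lower one. Muscle markers moved by 1.39 in mandibular mesenchyme and by -0.105 in frontonasal mesenchyme, and their part in these differences was not tested.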

How the results depend on the processing

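For the age comparison in frontonasal mesenchyme, 2795 probe sets became 4199 with array weights, 3942 with no variance filter and 4191 with a filter on detection. The mandibular 2548 became 4829 with array weights. The 509 interactions became 939 with the 24 mesenchyme arrays only, 2289 with array weights and 843 with a replicate block on the compared arrays. The cause of these shifts was not tested. Leaving out 1 array gave 1980 to 2423 in frontonasal mesenchyme, 1778 to 2492 in mandibular mesenchyme and 277 to 744 for the interaction. Renewed quantile normalization gave 275 and 345 for the interaction, against 260 and 249.

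Of 180 named genes called in frontonasal mesenchyme, 133 kept the call under every alternative run, 47 lost it under at least 1, and 0 of the 197 named genes changed sign under any of them. These counts leave out Rgs5. Deviations of arrays with the same replicate number correlated at -0.0681, 0.163 and 0.106, and no pairing was assumed from them. A replicate block gave 2823 calls over all arrays and 2835 over the compared arrays. Over the compared arrays the block ended the calls of Pfkl (adjusted p = 0.0552), Eno1 (0.0563), Ldha (0.064) and Hk2 (0.0505), which are 4 of the 9 hypoxia and glycolysis genes that fell, and of Hk1 (0.104), Dnmt3a (0.15), Hes1 (0.0618), Notch1 (0.064), Pbx3 (0.0711) and Ndufa4l2 (0.0596). Over all arrays it ended that of Ednra (0.0529). Of the 17 named genes that did not pass, 12 passed in the fit to the compared arrays alone, 10 with the block on them and 9 with the mesenchyme arrays only. The number of arrays and the background limit weak signals, of which Sp5, Wnt6 and Six6 were below background at one age.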

Other observations

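Among imprinted growth genes 6 of 24 tested rose (25.0%), 4 fell (16.7%) and 14 did not pass, and of solute carriers 4 of 23 rose (17.4%) and 7 fell (30.4%). Of 36 tested endothelial genes Erg, a factor of vessel cells, rose (0.40 ± 0.12) and Flt4, the receptor for lymphatic growth factor, fell (-0.61 ± 0.20), while the mean of the endothelial markers was 7.66 to 7.75 at E11.5 and 7.49 to 7.7 at E10.5. Of 12 mural cell genes 0 rose and 3 fell (25.0%), namely Des, Notch3 and Ndufa4l2 (-0.45 ± 0.15), and of 21 genes of glia and melanocyte precursors 2 rose (9.52%) and 1 fell (4.76%), against 7 and 0 in mandibular mesenchyme. Over all tested probe sets 11.9% rose and 7.37% fell in frontonasal mesenchyme, and 9.35% and 8.26% in mandibular mesenchyme. The frontonasal shares of the glia list are thus below those of all tested probe sets. Of 25 immediate-early and heat shock genes 0 rose, and Ier2 (-0.51 ± 0.16) and Myc fell (8.0% of the list, near the 7.37% of all tested probe sets). Erg lost its call without E11.5 replicate 3 or E10.5 replicates 1 or 2; Flt4 without E11.5 replicates 1 or 3 or E10.5 replicates 2 or 3; Notch3 without E11.5 replicates 2 or 3 or E10.5 replicate 3, or with centring; and Ndufa4l2 without E11.5 replicates 1 or 3 or E10.5 replicates 2 or 3, or with a fit to the compared arrays alone (adjusted p up to 0.206). Myc lost its call without E11.5 replicates 1 or 2 or E10.5 replicate 3, or with centring; and Ier2 without E11.5 replicates 1 or 2 or E10.5 replicates 1 or 2 (adjusted p up to 0.137).

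Mir100hg, the host transcript that holds Mir100, Mirlet7a-2 and Mir125b-1 in RefSeq, was chosen after its values were seen. It had 9.37, 9.22 and 9.34 at E11.5, against 7.99, 7.69 and 9.25 at E10.5, and its difference of 1.00 ± 0.24 passed (adjusted p = 0.00225), although the ages overlap. Mature microRNA was not measured. The heat shock gene Hspa1a, also chosen after its values were seen, had 6.48, 6.29 and 6.33 at E11.5, against 8.23, 8.25 and 6.73 at E10.5, with the third E10.5 array far below the others of its age, and its difference of -1.37 ± 0.79 did not pass (adjusted p = 0.251, and 0.0229 with the compared arrays alone). Mir100hg lost its call without E10.5 replicate 2, or with a fit to the compared arrays alone (adjusted p up to 0.0596).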
